A study of Macaca mulatta with 51 samples.

Results

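Collagens are the structural proteins of the extracellular matrix, and the genes described here are the rows of the count table whose human gene symbol is COL, a number, A and a number. Of the 16033 genes of the table, 28 met this rule. 10 of them encode fibrillar chains, 5 encode basement membrane chains of type IV, and 13 encode other chains, namely those of the type VI beaded filaments, the hexagonal networks, the fibril-associated collagens, type XV and 2 remaining types. A list of 44 collagen genes held 16 more, among them COL6A1, COL12A1 and COL18A1, which were not analysed here.

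The study sequenced polyA RNA from punch biopsies of subcutaneous abdominal adipose tissue (AT) and gastrocnemius skeletal muscle (SM) of rhesus macaques with diet-induced obesity (DIO), in order to follow gene expression through FGF21-induced weight loss. The 10 animals were 5 males and 5 ovariectomized females, 11 to 22 years old, and each had been kept for 2 years or longer on a diet rich in fat and sucrose. Every animal was injected once a day with native human FGF21 for 12 weeks, at doses raised from 10 to 1000 ug/kg/day (300 ug/kg/day in 1 animal). Biopsies were taken before treatment (pre), after the 12 weeks (post) and after 16 weeks of washout, so that treatment and the passage of time cannot be told apart. Counts were available for 10 pre, 9 post and 8 washout libraries of AT and for 6 pre, 8 post and 7 washout libraries of SM, each from 1 animal.

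Fibrillar collagens, above all types I and III, assemble into the fibrils of connective tissue and are made largely by fibroblasts and their progenitors, whereas type IV collagen forms the network of the basement membrane that surrounds each adipocyte, each muscle fiber and the endothelium. The other types bind to or connect these structures. The COL4A1 and COL4A2 genes lie head to head and share a promoter, and COL3A1 and COL5A2 are likewise neighbours in the RefSeq annotation of the T2T-MMU8v2.0 assembly.

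Libraries held 15756491 to 23940980 counts in AT and 14455195 to 21740711 in SM. The tissues matched their labels. The 5 adipocyte markers summed to 22167 to 48659 CPM in the pre AT libraries and to 108 to 1051 CPM in the pre SM libraries, and the 8 skeletal muscle fiber markers to 65.6 to 183 CPM and 142584 to 221596 CPM. Values are given below as CPM, counts scaled to a common library size with TMM factors within a tissue. Levels of different genes are not compared because gene lengths were not used. Differential expression (DE) was called by edgeR's quasi-likelihood test with animal in the model where the p-value, adjusted by Benjamini-Hochberg over all genes tested in the tissue, was below 0.05 and the size of the log2 fold change above 0.26. The 3 comparisons within a tissue share libraries and are not independent of each other.

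In AT, the 28 collagen genes took 1.52% to 3.61% of all counts of a library pre-treatment (mean 2.52% ± 0.65 SD, n = 10), 2.24% to 5.62% post-treatment (3.60% ± 1.18, n = 9) and 1.73% to 4.54% at washout (2.73% ± 0.93, n = 8). The share was higher post-treatment than pre-treatment in 7 of 9 animals. The fibrillar chains alone took 1.80% ± 0.62 pre-treatment and 2.94% ± 1.14 post-treatment, while the basement membrane chains went from 0.459% ± 0.081 to 0.358% ± 0.059. The 3 groups overlapped in each of these sums, which were not tested. Counts come from whole biopsies, in which fewer cells of a type and less RNA per cell cannot be told apart.

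After 12 weeks of FGF21, the type I chains were higher and the basement membrane chains COL4A1, COL4A2 and COL4A5 lower in AT than before treatment. 26 of the 28 collagen genes were tested in AT. 7 of them were called DE, 3 higher and 4 lower, against 15.5% of all 13367 genes tested, 6.98% higher and 8.49% lower. The 3 called higher were all fibrillar (of 9 tested), and the 4 called lower were 3 basement membrane chains (of 5 tested) and 1 of the other class (of 12 tested). The median log2 fold change was 0.57 for the fibrillar genes, -0.37 for the basement membrane genes and -0.09 for the others, beside 0.03 over all genes tested. All 5 basement membrane genes had a negative estimate.

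**Figure D1:**
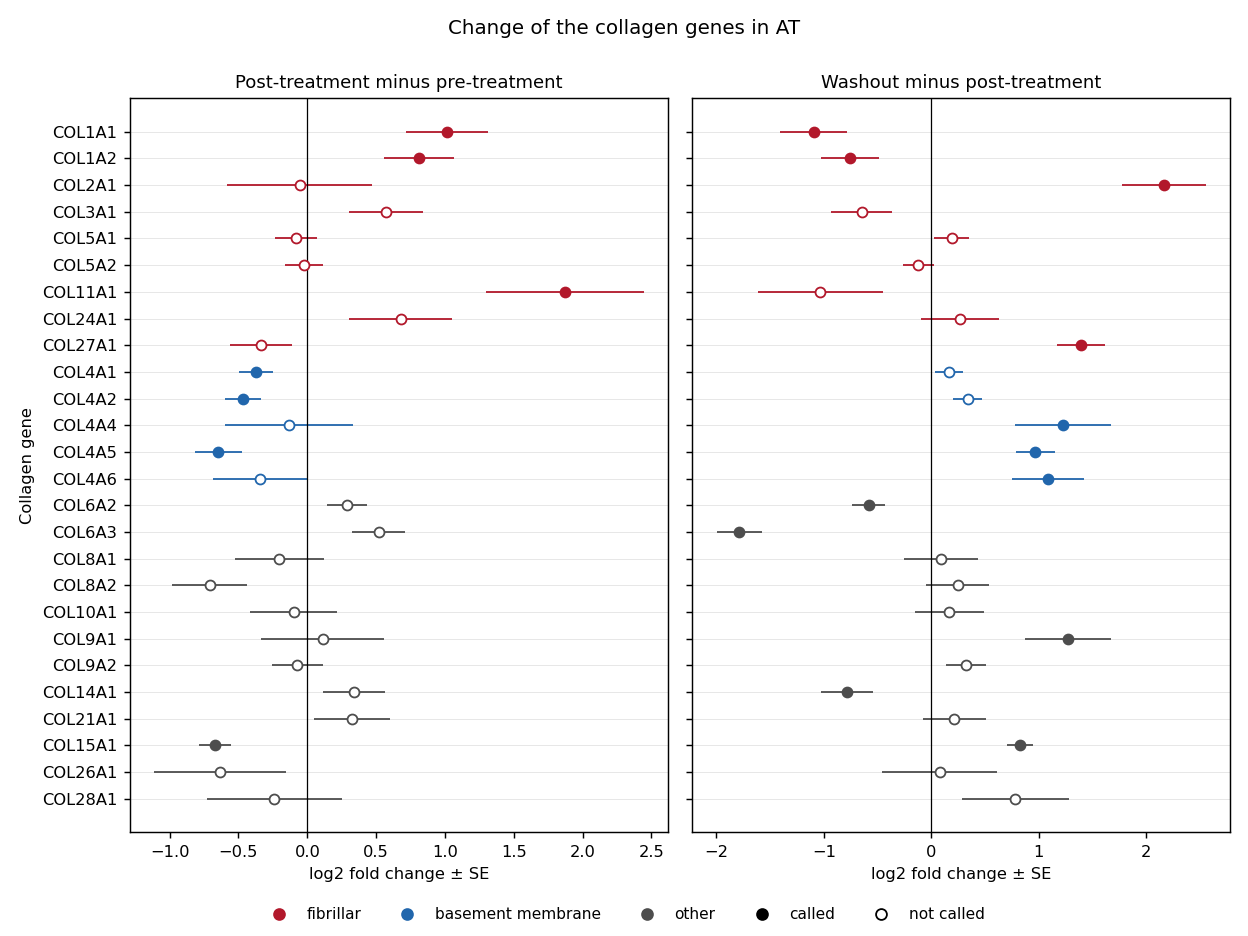
Log2 fold change with its SE for the 26 collagen genes tested in AT, post-treatment against pre-treatment on the left and washout against post-treatment on the right. Filled points were called DE, and colors mark fibrillar, basement membrane and other chains. On the left, COL1A1, COL1A2 and COL11A1 are the called increases and COL4A1, COL4A2, COL4A5 and COL15A1 the called decreases, and on the right COL6A3 is the lowest point.

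COL1A1 encodes the alpha 1 chain of type I collagen, the main fibrillar collagen of connective tissue. It measured 1715 to 6903 CPM, median 3471, pre-treatment (n = 10), 4050.2 to 12774 CPM, median 8065, post-treatment (n = 9), and 1959 to 9241 CPM, median 2969.8, at washout (n = 8). 5 of the 9 post-treatment libraries were above all 10 pre-treatment libraries and the groups otherwise overlapped. COL1A1 was higher post-treatment in 8 of 9 animals (log2 fold change 1.02, SE 0.30, adjusted p = 0.0285), with changes within an animal from -0.33 to 2.90 on the log2 CPM scale. COL1A2, the partner chain in the type I trimer, measured 3362 to 8865 CPM, median 4961, pre-treatment (n = 10), 5108 to 14920.1 CPM, median 9779, post-treatment (n = 9), and 3022 to 11231 CPM, median 5446, at washout (n = 8). It too had 5 post-treatment libraries above the pre-treatment range, and it was higher in 7 of 9 animals (log2 fold change 0.81, SE 0.26, adjusted p = 0.0387). COL3A1, which encodes type III collagen and co-assembles with type I in the fibrils of soft tissues, measured 3852 to 11965 CPM, median 6607, pre-treatment (n = 10), 5363 to 17605 CPM, median 11719, post-treatment (n = 9), and 3948 to 13510.0 CPM, median 6402, at washout (n = 8). Its estimate had the same sign and did not pass the test (log2 fold change 0.57, SE 0.27, adjusted p = 0.138), with 7 of 9 animals higher. COL11A1, a minor fibril chain, measured 0.513 to 4.42 CPM, median 1.67, pre-treatment (n = 10), 0.596 to 35.0 CPM, median 3.47, post-treatment (n = 9), and 0.898 to 5.29 CPM, median 2.42, at washout (n = 8). The post-treatment values were the widest, with 4 of 9 libraries above the pre-treatment range, and 6 of 9 animals were higher (log2 fold change 1.87, SE 0.57, adjusted p = 0.0355).

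Type V chains, which regulate fibril diameter, had smaller estimates. COL5A1 measured 517 to 1031 CPM, median 759, pre-treatment (n = 10), 409 to 1042 CPM, median 721, post-treatment (n = 9), and 659.5 to 1039 CPM, median 801, at washout (n = 8). COL5A2 measured 808 to 1398 CPM, median 1007, pre-treatment (n = 10), 683 to 1311 CPM, median 1060.4, post-treatment (n = 9), and 620.4 to 1325 CPM, median 981, at washout (n = 8). Neither passed the test post-treatment against pre-treatment, with log2 fold changes of -0.08 (SE 0.15, adjusted p = 0.739) for COL5A1 and -0.03 (SE 0.14, adjusted p = 0.917) for COL5A2. The estimates of the other fibrillar genes tested ran from -0.34 for COL27A1 to 0.68 for COL24A1 and none passed.

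The type IV chains COL4A1 and COL4A2 assemble into the trimer found in nearly all basement membranes. COL4A1 measured 2190.2 to 3523 CPM, median 2728, pre-treatment (n = 10), 1670.4 to 2567 CPM, median 2232, post-treatment (n = 9), and 1966 to 3701 CPM, median 2294, at washout (n = 8). It was lower post-treatment in 8 of 9 animals (log2 fold change -0.37, SE 0.12, adjusted p = 0.0446), and 4 of 9 post-treatment libraries were below the pre-treatment range. COL4A2 measured 1424 to 2569 CPM, median 1776, pre-treatment (n = 10), 1076 to 1879 CPM, median 1333, post-treatment (n = 9), and 1367 to 2464 CPM, median 1739, at washout (n = 8). All 9 animals were lower post-treatment (log2 fold change -0.47, SE 0.13, adjusted p = 0.0249), and 5 of 9 libraries were below the pre-treatment range. COL4A5, a chain of the less widespread type IV networks, measured 7.88 to 24.6 CPM, median 16.9, pre-treatment (n = 10), 5.28 to 20.1 CPM, median 8.68, post-treatment (n = 9), and 7.53 to 39.4 CPM, median 20.3, at washout (n = 8) and was also lower in 9 of 9 animals (log2 fold change -0.65, SE 0.17, adjusted p = 0.0204). COL4A4 did not pass (log2 fold change -0.13, SE 0.47, adjusted p = 0.874), nor did COL4A6 (log2 fold change -0.34, SE 0.34, adjusted p = 0.506). COL15A1 encodes a collagen that bridges the basement membrane and the neighbouring fibrils. It measured 273 to 853 CPM, median 491, pre-treatment (n = 10), 188 to 438 CPM, median 383, post-treatment (n = 9), and 330.0 to 1066 CPM, median 628, at washout (n = 8), was lower post-treatment in 9 of 9 animals, and had the smallest adjusted p of the members in this comparison (log2 fold change -0.67, SE 0.12, adjusted p = 0.00250). In the other class, COL6A2, COL6A3, COL8A1, COL8A2, COL9A1, COL9A2, COL10A1, COL14A1, COL21A1, COL26A1 and COL28A1 did not pass, with log2 fold changes from -0.71 (SE 0.27, adjusted p = 0.0781) for COL8A2 to 0.52 (SE 0.19, adjusted p = 0.0722) for COL6A3. COL11A2 and COL19A1 were too low to be tested in AT, with at most 25 and 5 counts in a library.

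**Figure D2:**
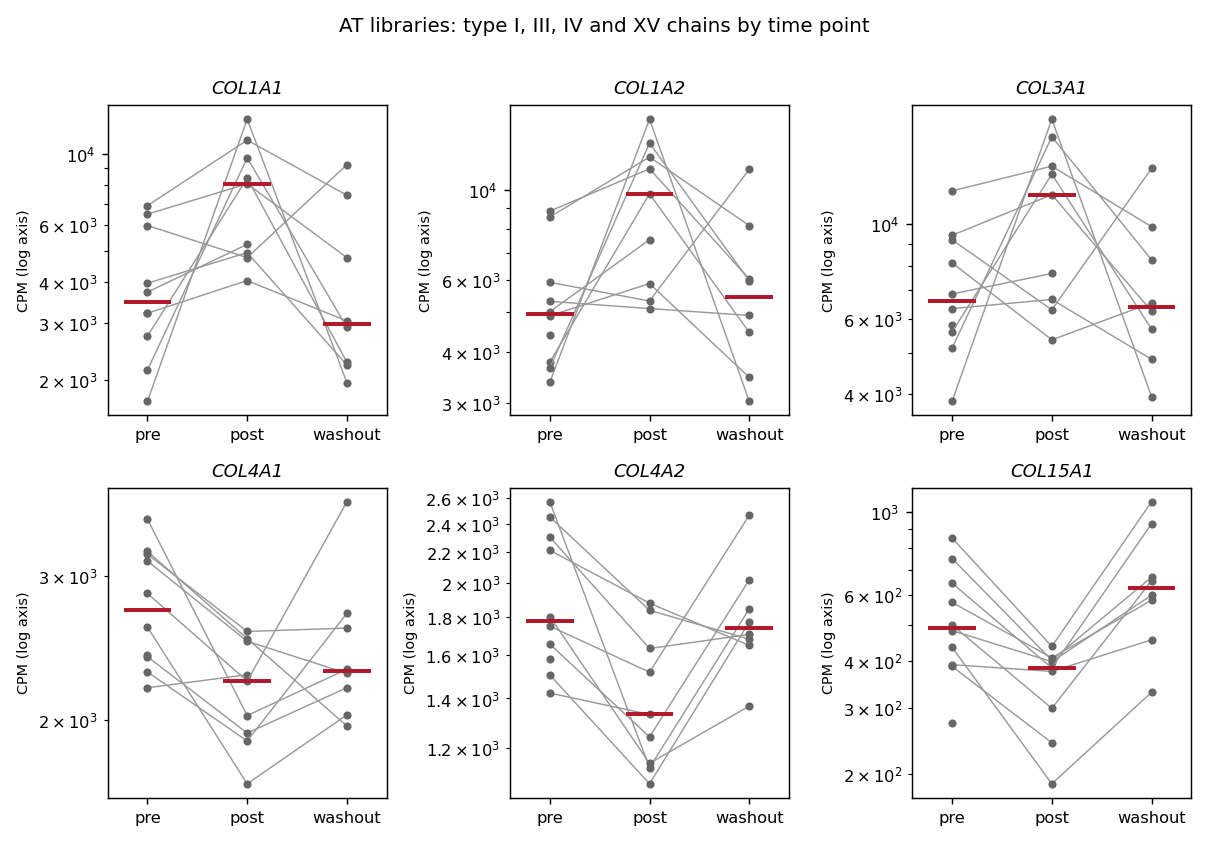
Level of 6 collagen genes in each AT library by time point, in CPM on log axes. Points are libraries, grey lines join the libraries of an animal, and red bars are group medians. The medians of COL1A1, COL1A2 and COL3A1 are highest post-treatment and those of COL4A1, COL4A2 and COL15A1 lowest post-treatment.

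The number of calls fell for collagen genes and over all genes alike when some single animals were left out. The number of collagen calls did not fall without animal 19832 (7 beside 15.5% of all genes), 24849 (7 beside 15.7%) or 20456 (8 beside 16.2%). Without animal 23004 it was 6 beside 16.7%. Without animal 22130 it was 1 collagen gene beside 6.05% of all genes, and without animal 20275 it was 2 beside 7.49%. It was 2 beside 8.7% without the pre-treatment library of animal 20275 alone, 3 beside 11.3% without animal 26292 and 4 beside 10.5% without animal 21866. COL15A1 was the member called in all of these leave-one-out fits, and it missed the threshold in 1 alternative, the model without animal (adjusted p = 0.0569). COL1A1 missed it without animal 20275, 22130 or 26292 (adjusted p of 0.076, 0.0858 and 0.0783), COL1A2 without animal 20261, 20275, 21866, 22130 or 26292 (0.0542 to 0.114) and COL11A1 without animal 20275, 21866, 22130 or 26292 (0.0751 to 0.123). COL4A1 missed it without animal 20261, 20275, 21189, 21866, 22130, 23004 or 26292 (0.0522 to 0.112), COL4A2 without animal 20275, 21189 or 22130 (0.0558 to 0.0749) and COL4A5 without animal 22130 (0.0606). With voomWithQualityWeights the log2 fold change of COL11A1 was 0.96 in place of 1.87 (adjusted p = 0.177). With only the 2 time points in edgeR's fit, COL1A1, COL1A2, COL11A1 and COL4A1 missed the threshold (adjusted p of 0.0546 to 0.123). COL1A2, COL11A1 and COL4A1 also missed it with the library number series, described below, in the model (0.0516 to 0.0626). No alternative turned the direction of a called gene.

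At washout, 16 weeks after the last dose, more collagen genes differed from the post-treatment level. 12 of 26 were called DE, 7 higher and 5 lower, against 35.4% of all genes tested, 17.6% higher and 17.8% lower. The fibrillar class had 2 called higher and 2 called lower, the basement membrane class 3 higher and 0 lower, and the other class 2 higher and 3 lower. The median log2 fold change was 0.97 over the 5 basement membrane genes, -0.12 over the 9 fibrillar genes and 0.19 over the 12 others, beside -0.00 over all genes tested.

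The type I chains were lower at washout than post-treatment in 7 of 8 animals each, with log2 fold changes of -1.09 (SE 0.31, adjusted p = 0.0103) for COL1A1 and -0.76 (SE 0.27, adjusted p = 0.0339) for COL1A2. Both calls were lost with the library number series in edgeR's model (adjusted p = 0.0712 for COL1A1 and 0.129 for COL1A2). Within the last series alone their adjusted p-values in edgeR's test were 0.379 and 0.583. COL3A1 had -0.65 (SE 0.28, adjusted p = 0.0766) and did not pass. In animal 21189 these 3 genes went the other way, and it had the highest washout level of COL1A1. Both type VI chains of the table, which form the beaded filaments around cells, were lower. COL6A2 measured 1005 to 1746 CPM, median 1429, pre-treatment (n = 10), 1284 to 2304 CPM, median 1557, post-treatment (n = 9), and 846 to 1880.2 CPM, median 1027, at washout (n = 8), and 6 of 8 washout libraries were below the post-treatment range (log2 fold change -0.58, SE 0.15, adjusted p = 0.00645). COL6A3 measured 89.4 to 266 CPM, median 174, pre-treatment (n = 10), 95.6 to 455 CPM, median 264, post-treatment (n = 9), and 29.4 to 220.3 CPM, median 74.4, at washout (n = 8). It had the largest decrease of the members, in 8 of 8 animals, and 6 of 8 washout libraries were below the post-treatment range (log2 fold change -1.79, SE 0.21, adjusted p = 1.07e-05). COL14A1, a fibril-associated collagen, measured 365 to 780.5 CPM, median 532, pre-treatment (n = 10), 339.9 to 1129 CPM, median 701, post-treatment (n = 9), and 204 to 837 CPM, median 349, at washout (n = 8) and was lower in 7 of 8 animals (log2 fold change -0.79, SE 0.24, adjusted p = 0.0155).

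The called increases at washout were led by genes at low levels. COL27A1, a fibrillar collagen known from cartilage, measured 3.1 to 17.7 CPM, median 8.65, pre-treatment (n = 10), 3.01 to 17.2 CPM, median 6.57, post-treatment (n = 9), and 13.7 to 30.3 CPM, median 20.3, at washout (n = 8). COL27A1 was higher than post-treatment in 8 of 8 animals (log2 fold change 1.39, SE 0.22, adjusted p = 0.000152), and 5 of 8 washout libraries were above the post-treatment range. COL2A1, the fibrillar collagen of cartilage, measured 0 to 0.729 CPM, median 0.137, pre-treatment (n = 10), 0 to 0.529 CPM, median 0.0593, post-treatment (n = 9), and 0.269 to 2.25 CPM, median 0.734, at washout (n = 8), which is 0 to 41 counts per library. COL9A1, which coats type II fibrils, measured 0 to 0.797 CPM, median 0.288, pre-treatment (n = 10), 0.101 to 0.713 CPM, median 0.372, post-treatment (n = 9), and 0.251 to 1.35 CPM, median 0.756, at washout (n = 8). COL2A1 was higher at washout than post-treatment in 8 of 8 animals (log2 fold change 2.16, SE 0.39, adjusted p = 0.000197), and COL9A1 in 7 of 8 (log2 fold change 1.27, SE 0.40, adjusted p = 0.0188). The 4 chondrocyte markers summed to 22.8 to 904 CPM pre-treatment, 18.0 to 253 CPM post-treatment and 23.3 to 495 CPM at washout, and their part in these 3 results was not tested.

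Among the basement membrane chains, COL4A5 rose in 8 of 8 animals (log2 fold change 0.97, SE 0.18, adjusted p = 0.000528). COL4A4, known from the kidney glomerulus, measured 0.343 to 3.24 CPM, median 1.09, pre-treatment (n = 10), 0.280 to 4.38 CPM, median 0.662, post-treatment (n = 9), and 0.748 to 7.60 CPM, median 1.70, at washout (n = 8). COL4A6, a further type IV chain, measured 0.827 to 5.05 CPM, median 1.57, pre-treatment (n = 10), 0.713 to 4.09 CPM, median 0.943, post-treatment (n = 9), and 1.05 to 8.57 CPM, median 3.12, at washout (n = 8). COL4A4 was higher at washout in 7 of 8 animals (log2 fold change 1.23, SE 0.45, adjusted p = 0.0382) and COL4A6 in 6 of 8 (log2 fold change 1.09, SE 0.34, adjusted p = 0.0160). COL4A1 and COL4A2 did not pass, with 0.16 (SE 0.13, adjusted p = 0.333) and 0.34 (SE 0.14, adjusted p = 0.0614). COL15A1 was higher in 8 of 8 animals, and 7 of 8 washout libraries were above the post-treatment range (log2 fold change 0.82, SE 0.12, adjusted p = 6.98e-05). The COL4A4 estimate was 1.95 without animal 22130, and COL4A4 missed the threshold without any one of 8 other animals (adjusted p of 0.0558 to 0.139), COL1A2 without any one of 6 (0.0507 to 0.113), COL4A6 without animal 21189 or 21866 (0.0521 and 0.0643), COL14A1 without animal 22130 (0.0537) and COL9A1 without animal 20275 (0.0712).

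**Figure D3:**
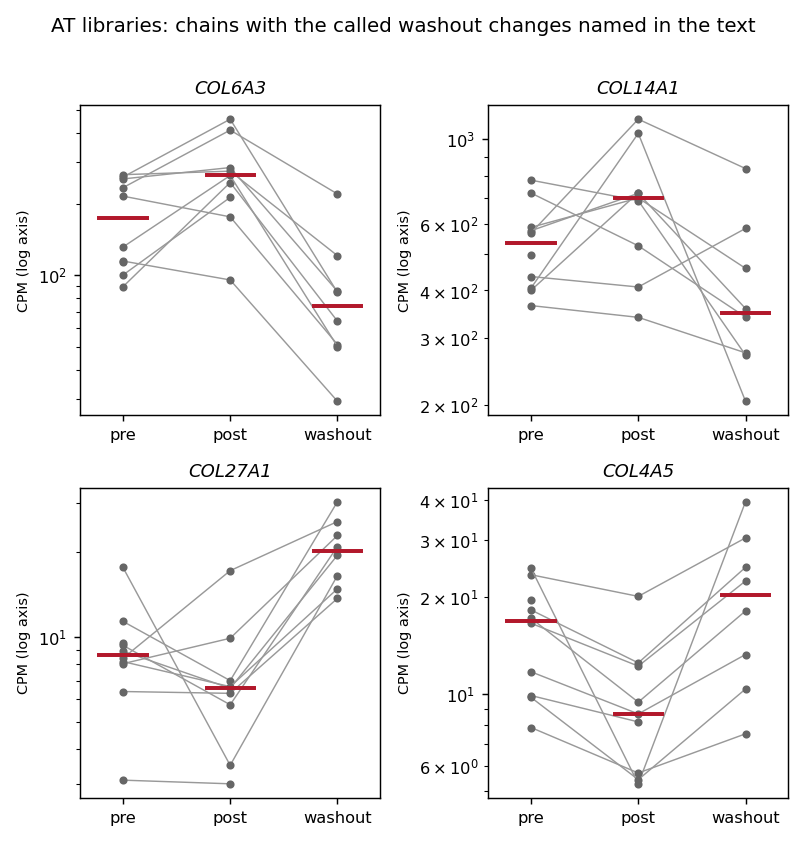
Level of 4 collagen genes in each AT library by time point, in CPM on log axes. Points are libraries, grey lines join the libraries of an animal, and red bars are group medians. COL6A3 has its lowest median at washout (74.4 CPM), and COL27A1 its highest (20.3 CPM).

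Against pre-treatment, the washout biopsies differed in 4 of 26 collagen genes, 3 higher and 1 lower, beside 20.5% of all genes tested, 12.5% higher and 7.96% lower. COL6A3 was below its pre-treatment level in 8 of 8 animals (log2 fold change -1.27, SE 0.21, adjusted p = 0.000193), with 6 of 8 washout libraries below the pre-treatment range. COL27A1 was above it in 7 of 8 (log2 fold change 1.06, SE 0.22, adjusted p = 0.00180), and COL2A1 and COL9A1 were the other members called higher, COL2A1 by 2.11 (SE 0.40, adjusted p = 0.000345) and COL9A1 by 1.38 (SE 0.41, adjusted p = 0.0200) on the log2 scale. COL9A1 missed the threshold without animal 20261, 20275 or 21866 (adjusted p of 0.0537, 0.0614 and 0.06). The type I and III chains had log2 fold changes between -0.08 and 0.05, with SE of 0.26 to 0.30, and COL4A1, COL4A2 and COL15A1 between -0.21 and 0.15, with SE of 0.12 to 0.14. None of these passed, and the remaining uncalled estimates ran from -0.56 for COL26A1 to 1.10 for COL4A4.

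The balance between collagen chains was compared in 5 pairs over the 3 comparisons of each tissue, as the change within animals of the log2 ratio. None of the 15 tests in AT or of the 15 in SM passed after adjustment (exact sign-flip permutation test, two-sided). The smallest p this permutation test allows is 0.00391 with 9 and 0.00781 with 8 animals in AT. In SM it is 0.0156 with 7 and 0.03125 with 6 animals. A single ratio could therefore not have passed alone over 15 tests, and the lack of calls does not show an unchanged balance. In AT, 7 of 15 had an unadjusted p below 0.05 and in SM 0 of 15. COL1A1 over COL3A1 was higher post-treatment in 8 of 9 animals (mean 0.43 ± 0.28 SD, exact permutation p = 0.00781, adjusted p = 0.0586), and COL1A1 over COL1A2 in 6 of 9 (0.18 ± 0.29, exact permutation p = 0.0859, adjusted p = 0.143). COL1A1 over COL4A1, a fibrillar chain against a basement membrane chain that it does not assemble with, was higher in 9 of 9 animals (1.31 ± 1.08, exact permutation p = 0.00391, the smallest that 9 animals allow, adjusted p = 0.0586).

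In SM, edgeR called 0 of the 28 collagen genes DE in each of the 3 comparisons, and so did voomWithQualityWeights and DESeq2. The share of all genes called was 0% post-treatment against pre-treatment, 0.19% at washout against post-treatment (0.182% higher and 0.00793% lower) and 0.0634% at washout against pre-treatment. An unadjusted p below 0.05 was reached by 2, 2 and 1 members. The libraries differed widely in their collagen content. The 28 genes took 0.0562% to 0.541% of counts pre-treatment (n = 6), 0.0261% to 3.85% post-treatment (n = 8) and 0.0348% to 0.529% at washout (n = 7).

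COL1A1 in SM measured 40.5 to 1027 CPM, median 136, pre-treatment (n = 6), 14.7 to 5951 CPM, median 447, post-treatment (n = 8), and 18.4 to 865 CPM, median 97.3, at washout (n = 7). COL1A2 measured 95.7 to 1631 CPM, median 251, pre-treatment (n = 6), 34.2 to 9294 CPM, median 773, post-treatment (n = 8), and 53.4 to 1330.0 CPM, median 214, at washout (n = 7). COL3A1 measured 82.9 to 1350.0 CPM, median 272, pre-treatment (n = 6), 33.6 to 8050.1 CPM, median 761, post-treatment (n = 8), and 52.4 to 1049.8 CPM, median 195, at washout (n = 7). For all 3 genes the post-treatment libraries reached below and above the range of the other time points. The log2 fold changes post-treatment against pre-treatment were 0.81 (SE 1.45, adjusted p = 1) for COL1A1 and 0.78 (SE 1.29, adjusted p = 1) for COL3A1. COL5A1 measured 29.4 to 161 CPM, median 48.6, pre-treatment (n = 6), 13.0 to 616 CPM, median 88.6, post-treatment (n = 8), and 13.2 to 138 CPM, median 39.4, at washout (n = 7). COL5A2 measured 27.4 to 138 CPM, median 44.5, pre-treatment (n = 6), 12.1 to 935 CPM, median 93.1, post-treatment (n = 8), and 15.3 to 132 CPM, median 41.1, at washout (n = 7). Both type V chains had their widest range post-treatment. COL6A2 measured 64.5 to 253 CPM, median 102, pre-treatment (n = 6), 28.8 to 659.7 CPM, median 191, post-treatment (n = 8), and 37.5 to 366 CPM, median 94.6, at washout (n = 7). COL6A3 measured 0.852 to 35.7 CPM, median 4.69, pre-treatment (n = 6), 1.24 to 38.7 CPM, median 6.58, post-treatment (n = 8), and 3.33 to 72.7 CPM, median 12.6, at washout (n = 7), with its highest library at washout.

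The basement membrane chains varied less between SM libraries. COL4A1 measured 41.8 to 159 CPM, median 86.3, pre-treatment (n = 6), 28.4 to 162 CPM, median 74.5, post-treatment (n = 8), and 47.1 to 135 CPM, median 87.6, at washout (n = 7). COL4A2 measured 42.3 to 138 CPM, median 74.6, pre-treatment (n = 6), 40.7 to 129 CPM, median 77.0, post-treatment (n = 8), and 54.6 to 121 CPM, median 69.6, at washout (n = 7). Their log2 fold changes post-treatment against pre-treatment were -0.13 (SE 0.27, adjusted p = 1) and -0.15 (SE 0.26, adjusted p = 1). COL15A1 measured 27.1 to 74.3 CPM, median 50.8, pre-treatment (n = 6), 21.0 to 199 CPM, median 39.4, post-treatment (n = 8), and 29.8 to 70.6 CPM, median 50.0, at washout (n = 7), with -0.07 (SE 0.30, adjusted p = 1). The 3 time points overlapped for every one of these genes.

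**Figure D4:**
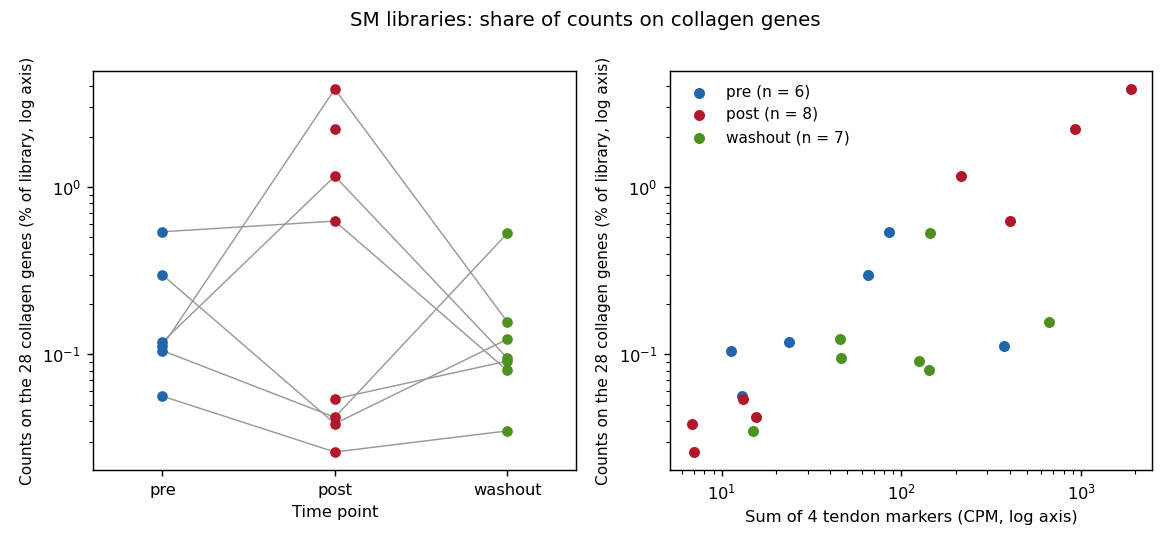
Share of counts on the 28 collagen genes in each SM library, in percent on log axes, by time point with lines joining an animal (left) and against the sum of 4 tendon markers in CPM (right). The post-treatment libraries of animals 21189, 21866, 20275 and 24849 lie between 0.626% and 3.85%, and those of the other 4 animals between 0.0261% and 0.0541%.

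The highest collagen share in SM was that of animal 21189 post-treatment, 3.85% (95% Wilson interval 3.85% to 3.86%, counting error only), followed by animal 21866 with 2.23%, animal 20275 with 1.16% and animal 24849 with 0.626%. The other 4 post-treatment libraries lay between 0.0261% and 0.0541%. The 4 tendon markers TNMD, MKX, THBS4 and FMOD summed to 1884, 925, 214 and 403 CPM in the first 4 of these libraries and to 6.78 to 15.6 CPM in the other 4. At the other time points the sums and the shares did not go together in this way in animal 21189, whose tendon markers summed to 374 CPM pre-treatment and 663 CPM at washout at collagen shares of 0.112% and 0.157%. In the same post-treatment libraries, the 12 fibroblast and adipose progenitor markers summed to 2993 to 6482 CPM and to 321 to 541 CPM, and the muscle fiber markers to 49277 to 121278 CPM and to 232525 to 259435 CPM, in the same order. The part of these cell types in the SM results was not tested. Without the post-treatment libraries of animals 21189 and 21866, the mean post-treatment share was 0.325% ± 0.472 (n = 6) in place of a mean of 1.0% ± 1.39 (n = 8). These libraries were picked after their shares were seen to be the highest, so that the mean had to fall. Without them, edgeR's test called 0 collagen genes in either comparison with the post-treatment libraries, as it did with all libraries.

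Library numbers in the labels fell into 3 series, and the labels do not say what they stand for. In SM, the 8 post-treatment libraries were 5 of the first series and 3 of the last, and the washout libraries were 6 of the last and 1 of the middle series. The 4 post-treatment libraries of low collagen share were all of the first series. Of the 4 of high share, those of animals 21189, 21866 and 24849 were of the last series and that of animal 20275 of the first. The part of the series in this split was not tested. Within the last series alone, 11 collagen genes were called lower at washout than post-treatment, beside 23.8% of all 12737 genes tested, with animals 21189, 21866 and 24849 as the 3 post-treatment libraries and 2 animals with both libraries in the series. Post-treatment against pre-treatment, 0 animals had both libraries in the last series, so that no within-animal comparison could be had there. In AT, the last series held 7 pre, 7 post and 4 washout libraries, and gave 2 called members beside 6.05% of all genes post-treatment against pre-treatment, 5 beside 16.6% at washout against post-treatment and 3 beside 8.4% at washout against pre-treatment.

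The difference between tissues in the response was tested directly. For the post-treatment change, 0 of 26 collagen genes differed between AT and SM, beside 0.0487% of the 12322 genes tested, and 3 members had an unadjusted p below 0.05 in edgeR's test. voomWithQualityWeights and DESeq2 also called 0. For the change from post-treatment to washout, 6 of 26 differed, beside 22.7% of all genes. COL6A3 was the one whose change was lower in AT than in SM (difference of log2 fold changes -2.74), with 8 of 8 animals lower in AT and 6 of 7 higher in SM. COL2A1, COL27A1, COL4A4, COL4A5 and COL9A2 had a higher change in AT, with differences from 0.99 to 1.94. Of these, COL9A2 was not called within AT. In SM it measured 0.0538 to 0.941 CPM post-treatment and 0 to 0.245 CPM at washout, near the floor. In AT it measured 0.983 to 2.61 CPM and 1.75 to 3.92 CPM. COL4A5 and COL9A2 lost their calls with voomWithQualityWeights (adjusted p of 0.066 and 0.0731). The number of collagen genes called for this difference was 2 beside 16.2% of all genes without animal 20275 and 3 beside 15.4% without animal 21189. COL4A4 missed the threshold without any one of 8 animals (adjusted p of 0.0501 to 0.109), COL2A1 without animal 20275, 21189 or 21866 (0.0526 to 0.0829), COL9A2 without animal 20275, 20456, 21189 or 24849 (0.0586 to 0.129) and COL27A1 without animal 20275 (0.0669).

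Pre-treatment, 23 of 28 collagen genes differed between AT and SM, 17 higher in AT and 6 higher in SM, beside 77.7% of all genes, 42.1% higher in AT and 35.5% higher in SM. COL4A1 and COL4A2 were higher in AT by 4.25 (SE 0.28, adjusted p = 3.47e-16) and 3.71 (SE 0.26, adjusted p = 3.32e-15) on the log2 scale, and COL6A3 by 3.96 (SE 0.67, adjusted p = 2.43e-06). The type I and III chains were higher in AT by 2.93 to 3.34. The 6 that were higher in SM were COL2A1, COL11A2, COL24A1, COL4A4, COL19A1 and COL26A1. COL4A4 measured 22.6 to 48.8 CPM (median 41.5, n = 6) in SM and 0.343 to 3.24 CPM (median 1.09, n = 10) in AT, and COL26A1 measured 11.4 to 43.9 CPM (median 23.6, n = 6) and 0.0553 to 0.830 CPM (median 0.499, n = 10). COL11A2, a minor fibril chain, measured 3.39 to 10.1 CPM (median 6.71, n = 6) in SM and 0 to 0.478 CPM (median 0.0555, n = 10) in AT, and COL19A1, a fibril-associated chain that skeletal muscle is known to express, 0.982 to 11.8 CPM (median 5.17, n = 6) and 0 to 0.221 CPM (median 0, n = 10). The 2 tissues did not overlap in these 4 genes. The tissues were also apart in members higher in AT, such as COL1A1, COL3A1 and COL4A1. The share of all genes without overlap was not counted. COL24A1 and COL2A1 were the other members higher in SM, with a log2 difference of -2.18 (SE 0.54, adjusted p = 0.000518) for COL24A1 and of -1.64 (SE 0.47, adjusted p = 0.00164) for COL2A1. Of the 5 members not called, COL8A2, COL4A6, COL10A1, COL9A1 and COL11A1, the estimates ran from -0.89 to 1.60. With library size alone in place of TMM, the median over all genes moved from 0.16 to 0.90 toward AT and COL2A1 lost its call (-0.88, adjusted p = 0.103), while COL4A5, COL21A1, COL27A1 and COL28A1 had estimates of 1.42 to 1.91, more than 1.5 times the reported ones. COL21A1 lost its call with voomWithQualityWeights (adjusted p = 0.148), with the library number series in the model (0.13) and without animal 20275, 21189 or 23004 (0.0601 to 0.106). COL28A1 lost it with voomWithQualityWeights (adjusted p = 0.0951), DESeq2's size factors (0.0572), no animal in the model (0.0582), the series in the model (0.107) and without animal 19832, 21189, 22130 or 23004 (0.0904 to 0.167).

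**Figure D5:**
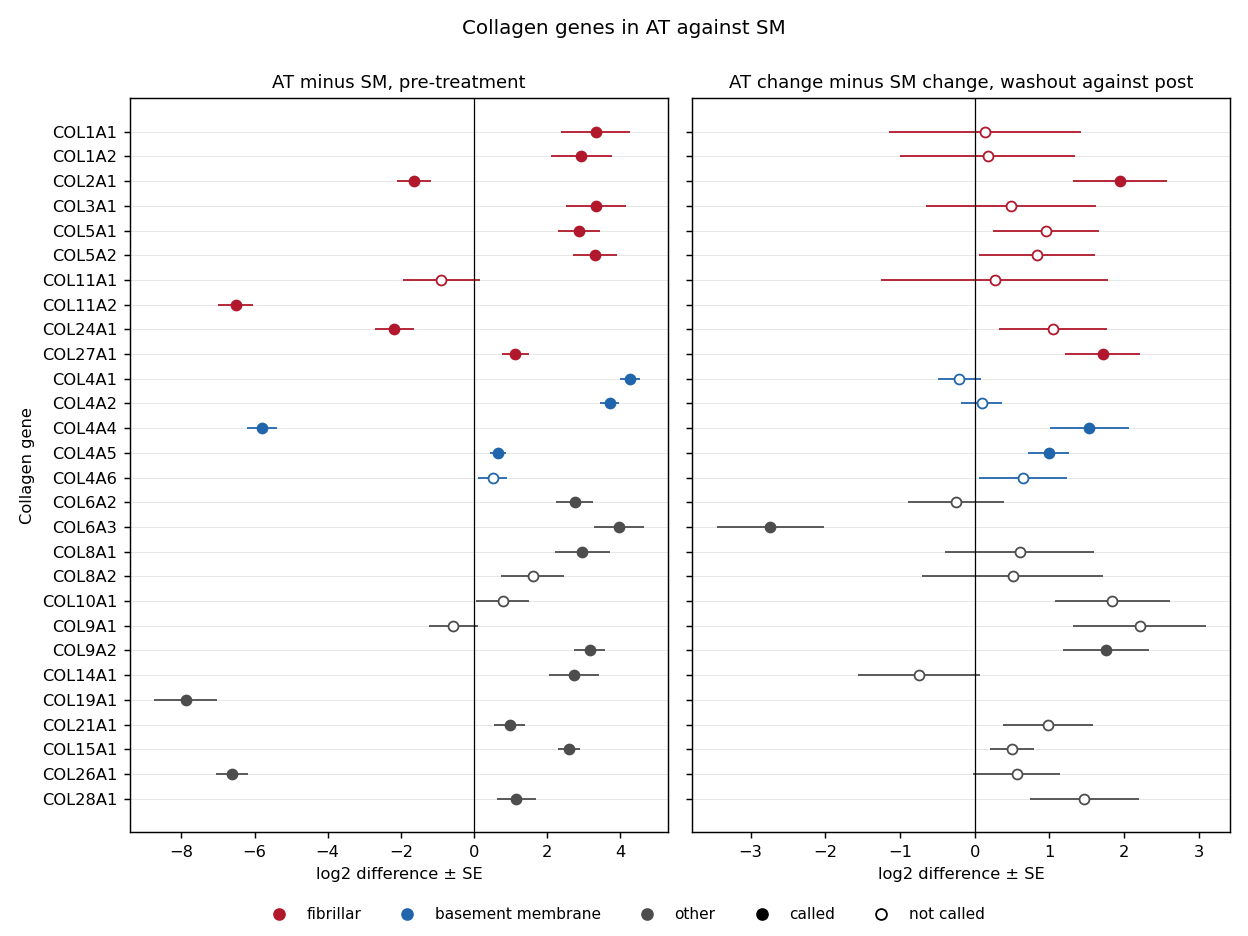
Log2 difference with its SE for the collagen genes between AT and SM pre-treatment (left) and between the AT and the SM change from post-treatment to washout (right). Filled points were called, and colors mark fibrillar, basement membrane and other chains. COL4A4, COL11A2, COL19A1 and COL26A1 lie furthest toward SM on the left, and COL6A3 is the filled point below 0 on the right.

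Genes that modify, process, bind or accompany collagen were counted from 4 lists. Of 28 genes of collagen biosynthesis and crosslinking tested in AT, 1 was higher and 5 lower post-treatment, 3 higher and 6 lower at washout against post-treatment, and 2 higher and 3 lower at washout against pre-treatment, beside 15.5%, 35.4% and 20.5% of all genes called in these comparisons. The same shares are the background of the other 3 lists. LOXL2, a lysyl oxidase that crosslinks collagen, was lower post-treatment (log2 fold change -0.96, SE 0.15, adjusted p = 0.00127) and higher at washout than post-treatment (log2 fold change 1.02, SE 0.16, adjusted p = 0.000101). PLOD2, a lysyl hydroxylase, was lower post-treatment with -0.65 (SE 0.18, adjusted p = 0.0224), and FKBP10, a collagen chaperone, was higher with 0.57 (SE 0.16, adjusted p = 0.0228).

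Of 12 noncollagenous basement membrane genes tested in AT, 1 was higher and 4 lower post-treatment, and the list's median was -0.44 on the log2 scale. The gene called higher was NID1, a nidogen, at 0.38 (SE 0.12, adjusted p = 0.0398), in 9 of 9 animals. The 4 called lower were LAMB3 at -1.25 (SE 0.24, adjusted p = 0.00414), NID2 at -1.02 (SE 0.20, adjusted p = 0.00520), LAMA4 at -0.63 (SE 0.13, adjusted p = 0.00593) and SPARC at -0.54 (SE 0.17, adjusted p = 0.0360), laminin chains, a nidogen and a collagen-binding glycoprotein, each lower in 9 of 9 animals. At washout against post-treatment 4 were higher and 2 lower. Of 9 collagen receptors, 1 was higher and 1 lower post-treatment and 2 were higher and 4 lower at washout against post-treatment. DDR2, the receptor tyrosine kinase for fibrillar collagen, was lower at washout than post-treatment (log2 fold change -2.43, SE 0.28, adjusted p = 1.07e-05) and DDR1, which also binds type IV collagen, was lower post-treatment than pre-treatment (log2 fold change -0.79, SE 0.15, adjusted p = 0.00350). Of 13 TGF-beta ligands and collagen regulators, 2 were higher and 1 lower post-treatment, and 0 were higher and 6 lower at washout against post-treatment. In SM, 0 genes of these 4 lists were called in any comparison.

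Markers of other cell types were counted in AT as well. Of all genes tested, 15.5% were called post-treatment against pre-treatment and 35.4% at washout against post-treatment. These shares are the background of the marker counts. Of 8 macrophage markers, 1 was called higher post-treatment and 7 lower at washout against post-treatment, with sums of 766 to 2989 CPM pre-treatment, 1358 to 8212 CPM post-treatment and 597 to 3291 CPM at washout. Of 5 adipocyte markers, 3 were called lower post-treatment, and of 12 fibroblast and adipose progenitor markers 1 was called higher post-treatment and 3 lower at washout against post-treatment. Of 6 smooth muscle and pericyte markers, 1 was called lower post-treatment and 3 higher at washout against post-treatment, and of 9 endothelial markers 0 and 4. The sum of the 4 tendon markers was lower post-treatment than pre-treatment in 8 of 9 animals and higher at washout than post-treatment in 8 of 8, and that of the 4 chondrocyte markers in 8 of 9 and 6 of 8. None of the markers of these 7 lists was at 0 in all libraries of an AT group. Their part in the collagen results was not tested.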

How the data were processed

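RNA was extracted from punch biopsies, and libraries were made with the Illumina TruSeq stranded mRNA kit and sequenced as paired-end reads of 50 nucleotides. Alignment by the authors used STAR and the MacaM assembly of the rhesus macaque, and they deposited 1 table of raw counts per gene, with the human gene symbol matched by the authors. The counting tool and the versions are not given in the sources used here. The submitters' processing notes also name FastQC, SAMtools, edgeR and limma. Of 51 labelled samples, 48 had a column of counts, and 3 were not analysed here. Of 16103 entries, 70 repeats with equal counts were dropped, which left 16033 genes.

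Groups were taken from tissue and time point in the labels, and animals from the animal number. The deposited counts were fitted within each tissue with edgeR 4.0.16 in R 4.3.3 (TMM scaling, quasi-likelihood test, time point and animal in the model), for genes over 0.5 CPM in at least 10% of libraries. A joint fit of both tissues tested the difference between their changes. A second fit of all 48 libraries, with animal in the model, tested the difference between tissues pre-treatment. Library totals were 15756491 to 23940980 counts in AT and 14455195 to 21740711 in SM, and replicates are animals. Same-animal libraries deviated from their group means together, with a median r of 0.35 over 25 pairs in AT and 0.28 over 19 pairs in SM, against -0.04 and -0.05 for other pairs. Pairing comes from the animal number. Chain ratios were tested by exact sign-flip permutation with SciPy 1.17.1, adjusted over 15 tests per tissue. On simulated counts with 200 genes changed by 1.5 on the log2 scale, the test of post-treatment against pre-treatment recovered 183 in AT (13232 genes tested) and 137 in SM (12407 genes tested).

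Full values are given for 10 preset collagens and, per comparison, for up to 3 called members in each direction with a mean of at least 1 CPM. Other members, COL2A1, COL9A1, COL11A2, COL19A1 and COL26A1 among them, were singled out after their values were seen. The members and lists were chosen with earlier results of these data known. Chain ratios with COL6A1 were not formed. Alternatives were other scalings, filters, tools (limma 3.58.1 voomWithQualityWeights, DESeq2 1.42.0), models and libraries left out.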

Additional observations from a re-analysis of the deposited data

Results flagged for a closer look

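Single libraries stood apart in 21 of the 96 groups of 6 to 10 libraries tested over the 16 collagen genes with full values. Dixon's 95% limit flags about 1 in 20 groups by chance where values are normally distributed, and the genes share libraries. The limit was applied to CPM without a log, where upward skew can raise this rate, so the 21 flags cannot be set against it. In each flagged group the highest library stood apart.

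Of the SM washout libraries, animal 22130 was far above the rest in 8 genes. It measured 864.5 CPM for COL1A1, 1330.0 CPM for COL1A2, 1050 CPM for COL3A1, 138 CPM for COL5A1, 132 CPM for COL5A2, 366 CPM for COL6A2, 72.7 CPM for COL6A3 and 330.3 CPM for COL14A1. Of the SM pre-treatment libraries, animal 24849 was far above the rest with 210.0 CPM for COL14A1, 161 CPM for COL5A1 and 35.7 CPM for COL6A3. Of the SM post-treatment libraries, COL11A1 measured 138 CPM in animal 21189, COL6A3 38.7 CPM in animal 20275 and COL4A6 1.45 CPM in animal 20456, and at washout COL4A6 measured 1.90 CPM in animal 21189.

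In AT post-treatment, animal 22130 measured 17.2 CPM for COL27A1 and 4.38 CPM for COL4A4, and animal 20261 measured 20.1 CPM for COL4A5 and 4.09 CPM for COL4A6. At washout, COL4A1 measured 3701 CPM in animal 24849 and COL4A6 8.57 CPM in animal 21189.

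For 6 genes the change from post-treatment to washout differed between AT and SM in edgeR's test of the difference. These were 6 of 26 tested beside 22.7% of all genes, which is close to the background. The AT change minus the SM change was 1.94 on the log2 scale for COL2A1, 1.72 for COL27A1, 1.54 for COL4A4, 0.99 for COL4A5, 1.76 for COL9A2 and -2.74 for COL6A3. The difference for COL6A3 kept its call in all 20 alternatives.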

How the results depend on the processing

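No alternative reversed a called gene. Without the replicate block, that is without animal in the model, 3 collagen genes in place of 7 were called in AT post-treatment against pre-treatment (10.6% of all genes). In SM at washout against post-treatment it was 1 in place of 0 (1.78% of all genes). For the difference between tissues at washout it was 12 in place of 6 (22.2% of all genes), and 2 in place of 0 chain ratios passed. With the replicate block and the library number series, 4 were called in AT post-treatment against pre-treatment (15.1% of all genes). In SM at washout against post-treatment 2 of 28 were called, where 21% of all genes were called in place of 0.19%. With only the 2 time points compared, the counts were 3 in AT post-treatment against pre-treatment (11.3% of all genes in place of 15.5%) and 8 in place of 4 at washout against pre-treatment (25.1% in place of 20.5%). Within the last number series, an alternative chosen after seeing the data, they were 2 in AT post-treatment against pre-treatment, 5 in place of 12 at washout against post-treatment, and 11 in place of 0 in SM at washout against post-treatment. Without the pre-treatment library of animal 20275, 2 were called in AT post-treatment against pre-treatment. At washout against pre-treatment in AT, voomWithQualityWeights called 7 (27.6% of all genes). A filter of at least 10 counts in every library left 2 of 18 members tested (21.3% of all genes). The same filter left 3 of 14 tested for the difference between tissues (25.2% of all genes) and 14 in place of 23 between tissues pre-treatment. It tested fewer members than the main fit, and none of those uncalled between tissues pre-treatment was among them. Leaving out each animal gave 1 to 8 calls in AT post-treatment against pre-treatment and 2 to 8 for the difference between tissues at washout, and 9 to 12 and 3 to 5 in the other AT comparisons. The causes of these moves were not tested. The other 184 values of counts kept within 1.5 times the reported count. Library size alone in place of TMM moved the median log2 fold change over all genes by 0.11 in AT at washout against pre-treatment, by -0.13 in SM at washout against post-treatment, by 0.22 for the difference between tissues at washout and by 0.74 between tissues pre-treatment.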
